A study of Mus musculus with 8 samples.

Results

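Axon guidance genes encode the secreted and membrane-bound cues that steer growing axons, and the receptors on the axon that read them. The genes described here were the protein-coding genes whose symbols name a semaphorin, plexin, neuropilin, Eph receptor, ephrin, Slit, Robo, netrin, Unc5 receptor or Dcc, and 69 of the 55536 genes measured met that rule. They comprised 20 semaphorins, 9 plexins, 2 neuropilins, 9 EphA and 5 EphB receptors, 5 A-type and 3 B-type ephrins, 3 Slits, 4 Robos, 4 netrins and 5 netrin receptors. Of these, 35 encode ligands and 34 encode receptors, although ephrins and several membrane semaphorins also signal into the cell that carries them. The rule uses gene names and no measured value.

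The libraries came from frontal cortex of 8-week-old mice, 4 WT and 4 HAR123-KO. The paper describes the WT controls as littermates of the HAR123-KO mice. The HAR123-KO mice carry a CRISPR-Cas9 deletion of the mouse HAR123 enhancer, which lies within an intron of Smg6, in the germline and therefore in every cell, on a C57BL/6J background. HAR123 is a human accelerated region, a sequence kept in mammals that changed quickly in the human lineage. The study sequenced this tissue to ask which genes the enhancer regulates in the adult frontal cortex, a region used in cognitive flexibility. The labels do not say that each library came from a separate animal, so the p-values below measure the spread between libraries, which may be technical.

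In the embryo, semaphorins act through plexins, with neuropilins as co-receptors for most class 3 semaphorins. Ephrins bind Eph receptor tyrosine kinases, usually A-type with EphA and B-type with EphB, and Slits repel axons through Robo receptors. Netrins attract axons through Dcc and repel them through Unc5 receptors. In adult cortex many of the same genes remain on in neurons and glia, where they are known for roles in synapses, dendritic spines and vessels.

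Total counts ranged from 13528251 to 17051001 between libraries, and Gm42418, a gene that overlaps ribosomal RNA sequence, took 56.8% to 58.0% of the total in WT and 55.1%, 55.7%, 55.3% and 57.4% in HAR123-KO. The first 3 HAR123-KO libraries thus lay below every WT library in this share, which enters the values scaled to library totals below. Counts on protein-coding genes of the nuclear genome, leaving out Lars2, which collects ribosomal reads, ran from 2786320 to 3732172, and the axon guidance genes held 12945 to 17216 of them, or 0.455% to 0.465%. In each group 1 library stood apart from the rest, by a chi-square of counts over genes divided by its degrees of freedom. Pairs with WT replicate 3 gave 2.28 to 3.83 and the other WT pairs 1.43 to 1.75, while pairs with HAR123-KO replicate 4 gave 2.63 to 3.26 and the other HAR123-KO pairs 1.38 to 1.46. This index includes Gm42418. The Gm42418 share was 56.8% in WT replicate 3, the lowest in WT, and 57.4% in HAR123-KO replicate 4, the highest in HAR123-KO. Its part in the index was not tested. Markers of neurons were plentiful in every library, but the sums of several marker lists did not overlap between the groups. The summed normalized counts of 10 markers of striatal projection neurons were 4337 to 4492 for WT and 5758 to 5945 for HAR123-KO, with 8 of them higher by the test below. For 8 choroid plexus markers the sums were 952 to 1006 and 1853 to 1972, with 3 higher, and for 6 oligodendrocyte markers they were 14611 to 15079 and 16529 to 16894, with 3 higher. The sums were lower in every HAR123-KO library than in any WT library for 5 astrocyte markers (21146 to 21793 against 19513 to 20070, 3 lower), 6 endothelial markers (389 to 426 against 303 to 335, with Vwf alone lower by the test) and 5 markers of claustrum and layer 6b (566 to 633 against 393 to 429, 2 lower). The choroid plexus sum was nearly all Ttr (68.2 ± 5.15 for WT and 641 ± 19.4 for HAR123-KO) and Enpp2 (889 ± 24.0 and 1197 ± 45.9), which oligodendrocytes also make, whereas Folr1, Otx2, Aqp1 and Kcne2 averaged fewer than 10 normalized counts. Sums of 5 neuron markers were 18608 to 19008 and 18443 to 18602, with Slc17a7 lower, and those of 4 upper layer markers were 2758 to 2881 and 2467 to 2709, with Cux2 lower. The part of these tissue differences in the values of the axon guidance genes was not tested, and in bulk tissue fewer cells of a type and less RNA per cell cannot be told apart.

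No axon guidance gene passed the DESeq2 test for a difference between HAR123-KO and WT, and Robo3 alone passed by another tool, edgeR. By the DESeq2 Wald test, 59 of the 69 genes had an adjusted p, 0 of these were under 0.05, and the lowest was 0.127. Over all 12758 genes tested, 1.69% had an adjusted p under 0.05, and 0.298% also differed by more than 0.5 on the log2 scale, which are the cut-offs used in the study for this tissue. An unadjusted p under 0.05 was found for 7 of the 59, 11.9%, beside 8.78% of all genes tested. By edgeR's quasi-likelihood test 1 of 63 axon guidance genes, Robo3, had an adjusted p under 0.05 (2.28% of all genes tested), and 11 (17.5%) had an unadjusted p under 0.05, beside 12.8% of all genes tested. By limma-voom 0 of 63 passed after adjustment (2.0% of all genes tested) and 10 (15.9%) had an unadjusted p under 0.05, beside 12.7% of all genes tested.

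The intervals of the differences were narrow for most of these genes. At least 10 normalized counts on average (counts divided by the DESeq2 size factor of the library) were present for 62 of the 69 genes. Among these 62 the log2 fold change of HAR123-KO over WT ran from −0.37 (Epha3) to 0.42 (Sema3f), and its median was −0.026, beside −0.0010 over all 14464 genes of that abundance. It was −0.012 without WT replicate 1, −0.017 without WT replicate 3, and between −0.033 and −0.028 without any other single library. The median was 0.013 when library totals were used for scaling, which moved the median of all genes to 0.037. The 95% interval lay within 0.5 on either side of 0 for 51 of the 62, or 82.3%, against 62.2% of all genes of that abundance, and within 0.25 for 24 of the 62. The 11 genes whose intervals reached beyond 0.5 were Sema3d, Sema3f, Sema4g, Sema6c, Epha3, Ephb4, Efna2, Robo3, Ntn1, Ntn4 and Ntn5. All 62 intervals lay within 1.

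**Figure D1:**
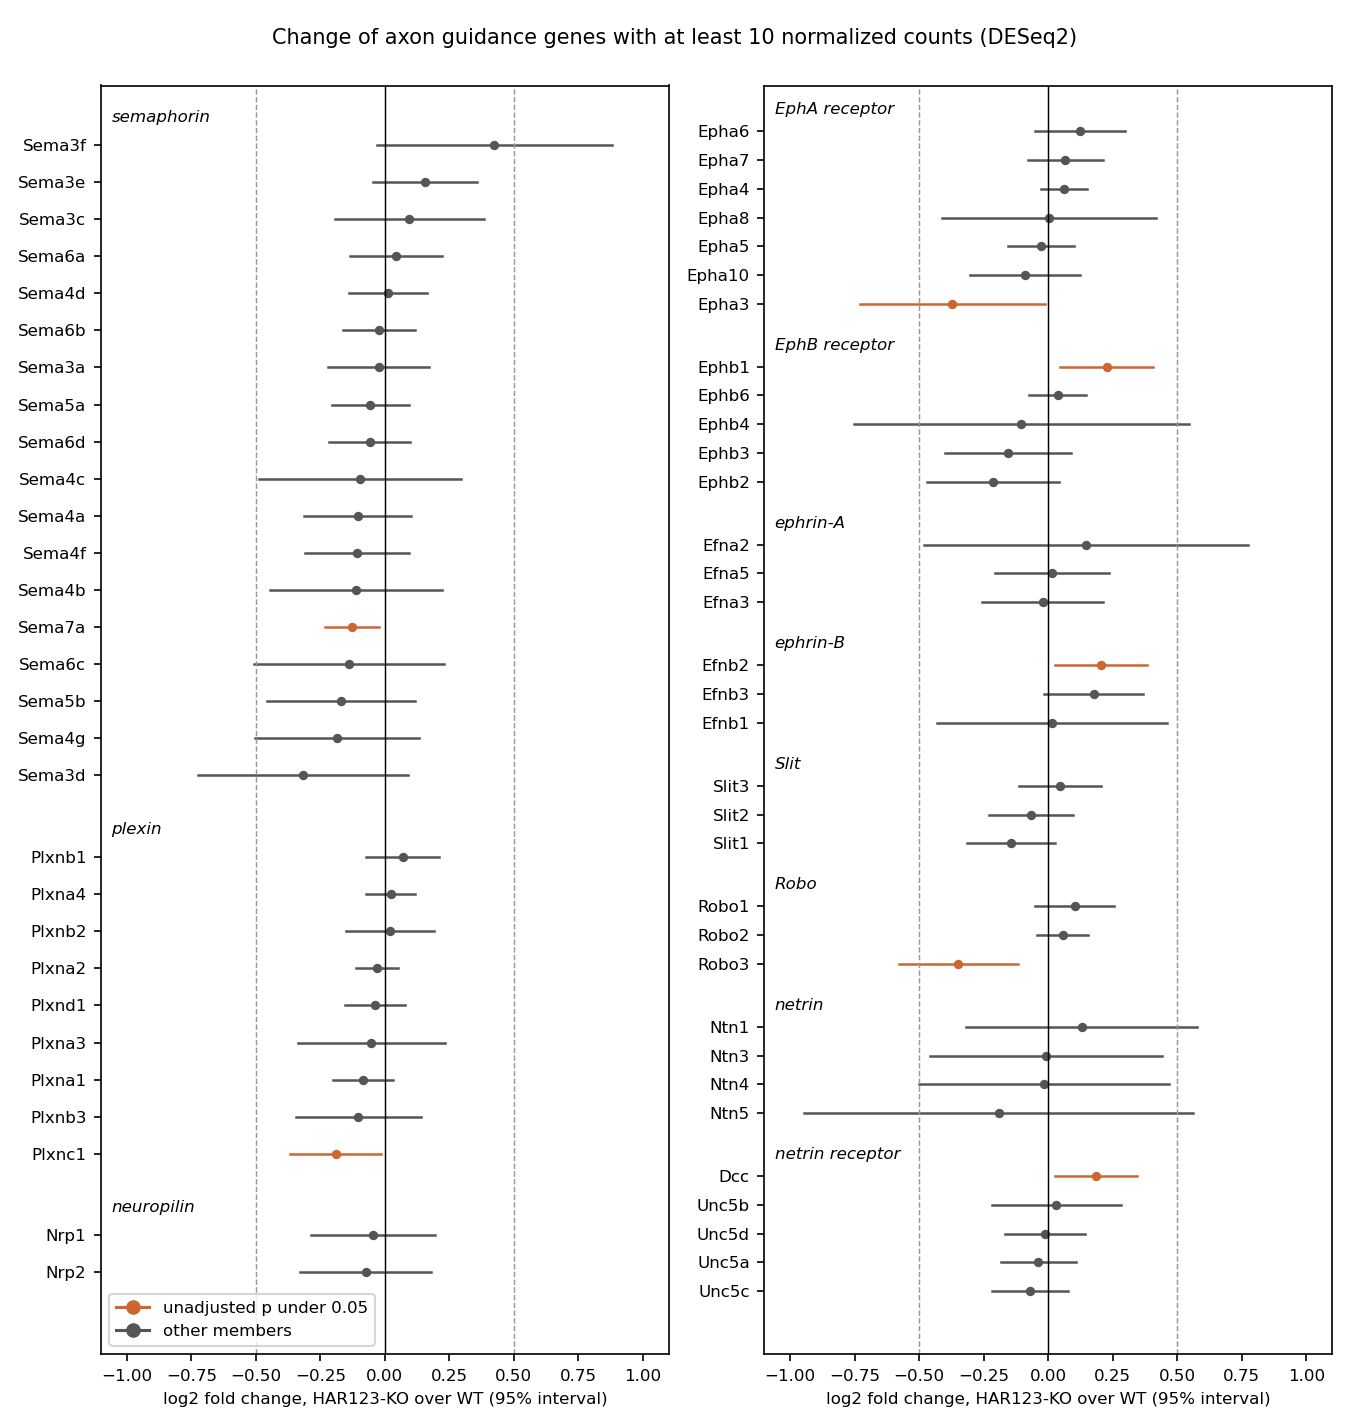
The log2 fold change of HAR123-KO over WT (x axis) with its 95% interval (line) for the 62 axon guidance genes with at least 10 normalized counts on average, by family and ordered by value, from DESeq2 with 4 libraries per group. Orange marks the 7 genes with an unadjusted p under 0.05, and dashed lines stand at 0.5 on either side of 0, which 51 of the intervals do not cross.

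To set genes side by side, levels are given as counts per kb of exon per 1000000 of those nuclear protein-coding counts. The exon length is the deposited one for the whole gene, whichever exons are used in this tissue, so orders by level depend on it. On that scale the axon guidance genes with at least 10 normalized counts had a median level of 6.40, near the 7.14 of the 12398 nuclear protein-coding genes of that abundance. They spanned 54.9-fold between the highest, Sema7a, and the lowest, Ephb4. The order at the top was Sema7a at 59.7, Ephb6 at 45.6, Epha4 at 38.2, Sema6b at 29.4 and Unc5a at 23.4, and for each of the first 4 the lowest of its 8 libraries was above the highest of the next gene. From Unc5a downward, every gene overlapped with the next in the order, so 64 of the 68 neighbouring pairs overlapped.

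**Figure D2:**
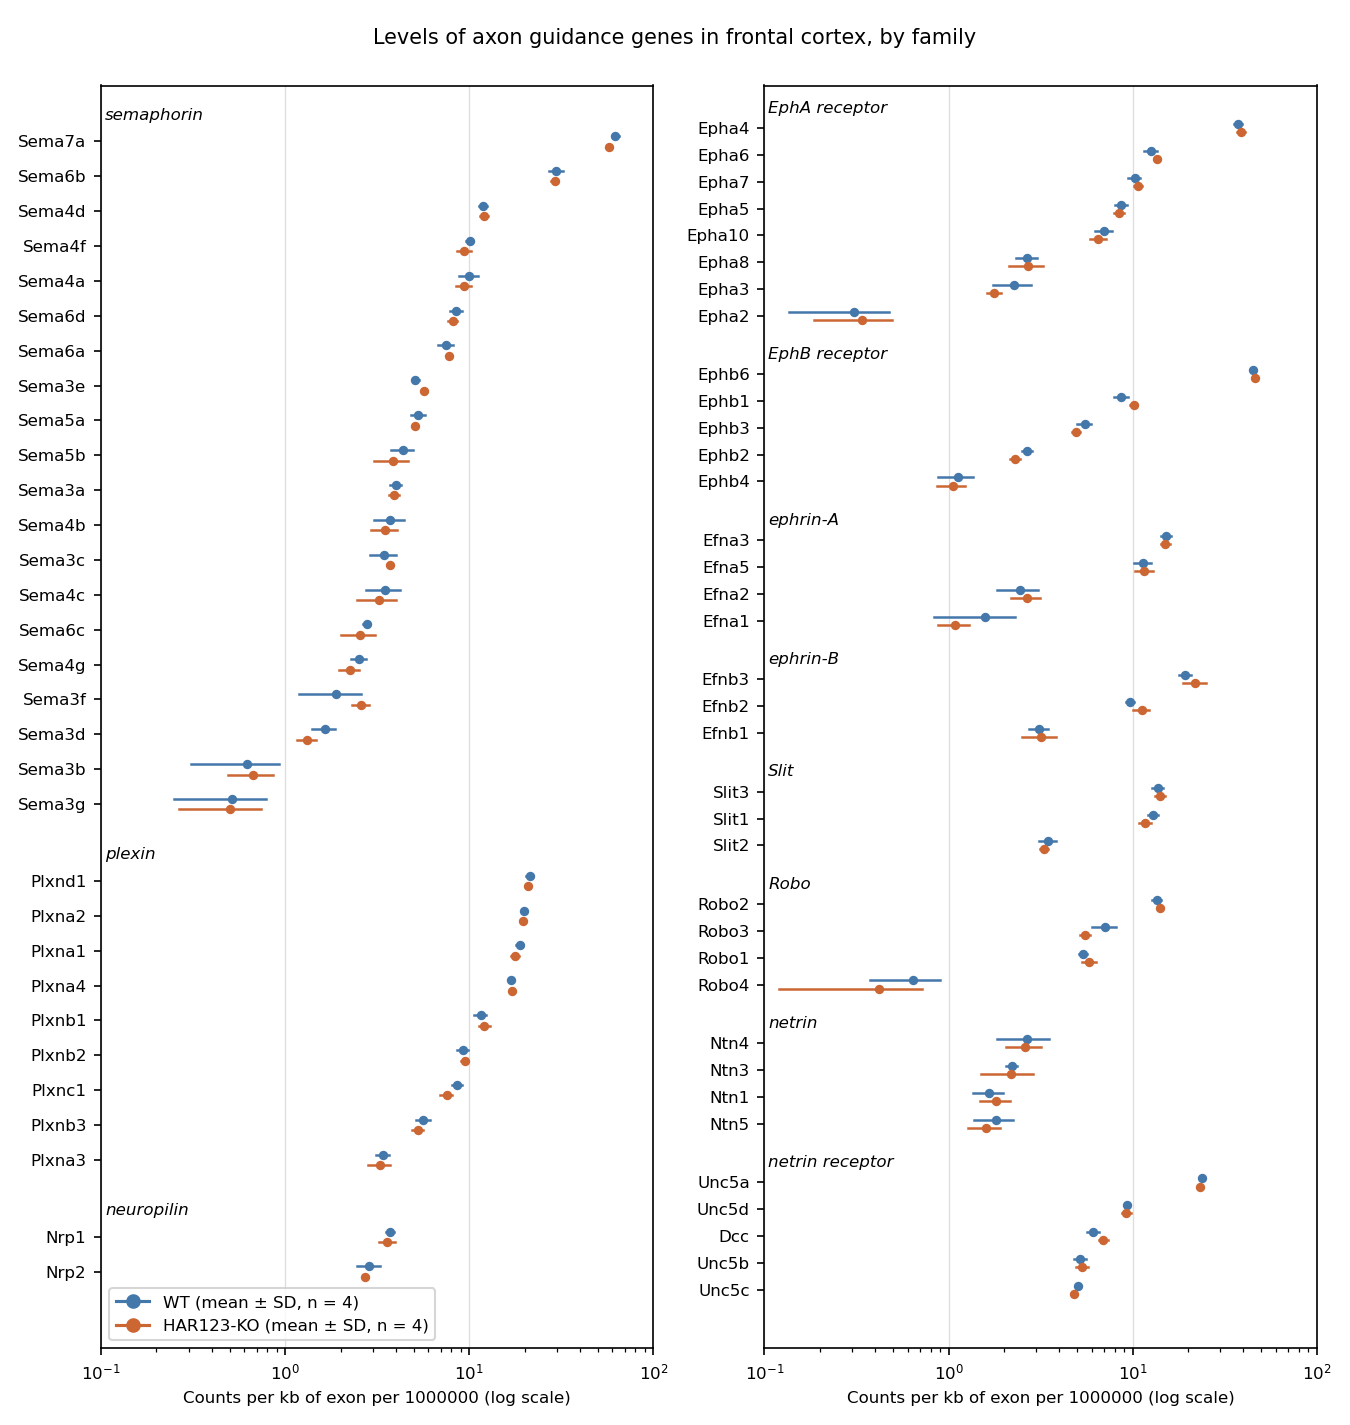
Levels of 67 axon guidance genes in counts per kb of exon per 1000000 (log x axis) by family, as the mean with its SD over 4 WT (blue) and 4 HAR123-KO (orange) libraries. Epha1 and Efna4, with 0 to 2 counts per library, are not drawn. Sema7a stands highest, and the WT and HAR123-KO means lie close together beside the spread between genes.

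Semaphorins were the family with the highest summed level, 179 ± 3.25 for WT and 172 ± 3.18 for HAR123-KO (SD, n = 4). The sums ran from 177 to 184 in WT and from 169 to 176 in HAR123-KO and did not overlap, whereas they overlapped when scaled to library totals. The sums of every other family overlapped on the scale used here. Among single genes with at least 20 normalized counts, 7.78% had groups without overlap. Sema7a, a semaphorin tied to the membrane by a lipid anchor that binds integrins and Plxnc1, made up 34.7% ± 0.842 of the WT sum and 33.3% ± 0.435 of the HAR123-KO sum. Without Sema7a the family's sum was 117 ± 1.55 for WT and 115 ± 1.58 for HAR123-KO, and the groups overlapped.

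The next semaphorins by level were Sema6b at 29.4, a transmembrane ligand of A-type plexins, and Sema4d at 11.96, a ligand of Plxnb1 known to be made by oligodendrocytes. Sema4d had 287 ± 15.9 normalized counts for WT and 291 ± 14.4 for HAR123-KO (SD, n = 4), while 3 of the 6 oligodendrocyte markers were higher, as given above. The secreted class 3 semaphorins summed to 17.2 ± 1.19 and 18.4 ± 0.564, with Sema3e, the class 3 ligand that binds Plxnd1 without a neuropilin, at the top of the class. At the low end stood Sema3b at 0.646 and Sema3g at 0.510. Of the 18 semaphorins with at least 10 normalized counts, 13 had a fold change below 0 and 5 above, with a family median of −0.077 on the log2 scale (−0.038 with library totals) and 0 that passed the test. That median was −0.049 without WT replicate 1 and −0.041 without HAR123-KO replicate 3.

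Plexins, the semaphorin receptors, were measured for all 9 genes. Their summed level was 115 ± 2.09 for WT and 113 ± 2.22 for HAR123-KO (SD, n = 4). Plxnd1, the receptor of Sema3e, was the highest at 21.05, followed by Plxna2 at 19.7, Plxna1 at 18.3 and Plxna4 at 16.996. The lowest Plxnd1 library (20.5) was above the highest Plxna2 library (20.2), whereas Plxna1 overlapped with both Plxna2 and Plxna4, and Plxna3 stood at 3.33. Plxna2 had the most counts of any axon guidance gene, 1078 ± 19.5 for WT and 1057 ± 34.2 for HAR123-KO, and the interval of its log2 fold change was −0.11 to 0.05. Plxnd1, which endothelial cells also carry, had 490.1 ± 20.7 and 477 ± 6.33 normalized counts. Of the endothelial markers Vwf alone passed the test, as given above. Plxnb3, a plexin of oligodendrocytes, had 115 ± 10.1 and 107 ± 7.08. About 10.7% of the exon bases of Plxna1 are shared with the neighbouring gene Gm26811, so part of its counts could belong to either gene. The neuropilins were low, Nrp1 at 3.65 and Nrp2 at 2.80, and their fold changes of −0.05 and −0.07 on the log2 scale were smaller than their errors.

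**Figure D3:**
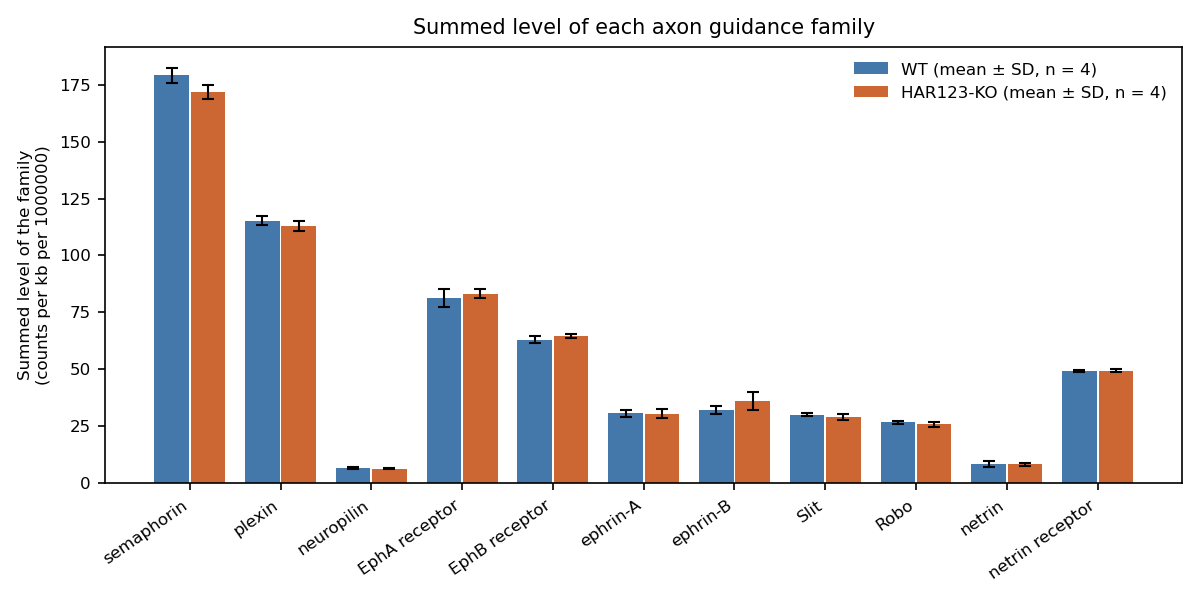
Summed level of each family in counts per kb of exon per 1000000 (y axis, from 0), as the mean and SD over 4 WT (blue) and 4 HAR123-KO (orange) libraries. Semaphorins sum to 179 for WT and 172 for HAR123-KO, and netrins and neuropilins have the lowest sums.

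Epha4, the Eph receptor that binds both types of ephrin, had the highest level among EphA receptors at 38.2, which was 46.2% ± 0.699 of the EphA sum for WT and 46.9% ± 1.61 for HAR123-KO (SD, n = 4). Its normalized counts were 950.1 ± 43.6 and 989 ± 50.3, an interval of −0.03 to 0.15 on the log2 scale. Epha6 at 13.1, Epha7 at 10.5, Epha5 at 8.55 and Epha10 at 6.75 followed, and Epha8 and Epha3 were at 2.69 and 2.02. Epha1 had 0 counts in all 4 WT libraries and 0, 1, 0 and 2 in HAR123-KO. In the shallowest library, which had 0, 3 counts, the limit a count of 0 allows, would be a level of 0.274. That limit does not cover the HAR123-KO libraries with 1 and 2 counts, where the level was at most 0.172. Epha2 was at 0.322.

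Ephb6 carried the B-type receptors, with a level of 45.6 and 71.5% ± 0.70 of the EphB sum for WT and 71.5% ± 0.786 for HAR123-KO (SD, n = 4). Ephb6 is a receptor without a working kinase. Its normalized counts in HAR123-KO were 551, 549, 552 and 545, against 546, 519, 552 and 522 in WT, so the groups overlapped. Ephb1 at 9.43, Ephb3 at 5.21, Ephb2 at 2.48 and Ephb4 at 1.09 followed. Ephb4, the partner of Efnb2 on veins, had an interval of −0.75 to 0.54 on the log2 scale, too wide to exclude a change of 0.5.

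Among A-type ephrins, which hang on the membrane by a lipid anchor, Efna3 at 15.2 and Efna5 at 11.5 made up most of the sum. Efna1, Efna3 and Efna4 lie close together on chromosome 3 (GRCm38, minus strand) at 89271733 to 89281142, 89313899 to 89322965 and 89333390 to 89338028 respectively, and their levels were far apart. Efna1 was at 1.33, while Efna4 had 0 counts in all WT libraries and 1, 0, 1 and 0 in HAR123-KO, where 3 counts in the shallowest library would be a level of 0.673. Efna3 shares 14.1% of its exon bases with Gm15998 and Efna4 shares 10.5% with 4731419I09Rik, so their counts are less certain. The log2 fold change of Efna3 had an interval of −0.26 to 0.21.

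The B-type ephrins, which span the membrane, had a family median of 0.18 on the log2 scale over 3 genes, with none of the 3 passing the test. This median is the Efnb3 value, and it was 0.093 without HAR123-KO replicate 4, with a range of 0.093 to 0.22 as each library was left out. The summed levels of the family overlapped between the groups, but did not when scaled to library totals. Efnb3 was the highest at 20.6, with library values of 211, 199.7, 179 and 186 normalized counts for WT and 181, 212, 224 and 257 for HAR123-KO. The Efnb3 groups overlapped, since the first HAR123-KO library lay below 3 of the WT libraries. Efnb2 at 10.4 is described below, and Efnb1 was at 3.14. Efnb3 lies 5.37 Mb from Smg6 on chromosome 11 and is the axon guidance gene nearest to it, followed by Ntn1 at 6.53 Mb and Slit3 at 39.2 Mb. The other 66 axon guidance genes are on other chromosomes.

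Slit1 and Slit3 were at levels of 12.3 and 13.9 and Slit2 at 3.38. By counts Slit2 was the highest Slit, with a mean of 271 normalized counts beside 230 for Slit1 and 265 for Slit3. Its level is lower through its exon length, 25433 bases against 5921 for Slit1 and 6067 for Slit3. The summed level of the Slits was 30.1 ± 0.741 for WT and 29.1 ± 1.31 for HAR123-KO (SD, n = 4). Robo2, a Slit receptor of many central axons, was the highest Robo at 13.8, with 723 ± 41.8 normalized counts for WT and 754 ± 23.6 for HAR123-KO (SD, n = 4). Robo3, a divergent Robo known for letting commissural axons cross the midline, was at 6.31, and Robo1 at 5.60.

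Robo3 and Robo4 lie tail to tail on chromosome 9 (GRCm38), Robo3 at 37415669 to 37433246 on the minus strand and Robo4 at 37401897 to 37415115 on the plus strand, with 553 bases between their ends. Robo4, the endothelial member, was at 0.530, with raw counts of 4, 11, 14 and 14 in WT and 3, 15, 5 and 6 in HAR123-KO. Its normalized means were 10.7 ± 4.41 and 7.03 ± 5.01 (SD, n = 4), and the interval of −1.56 to 0.35 on the log2 scale left its change unresolved at this depth. The log2 fold change was −0.61 and ran from −1.22 without HAR123-KO replicate 2 to −0.37 without HAR123-KO replicate 1, with −0.41 without WT replicate 4. The endothelial marker sums were lower in HAR123-KO, as given above, and their part in the Robo4 value was not tested.

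The start sites of this neighbouring pair differ in the density of the letters CG, at which vertebrate promoters can be methylated. The sequences are shown because they are the promoters of the gene with the smallest p and of its low neighbour. Both are RefSeq sequences of GRCm38.p6, 250 bases before to 50 bases after the RefSeq start, 5′ to 3′, with each CG in capitals. That of Robo3 (chr9:37433126-37433425, minus strand) holds 17 CG and that of Robo4 (chr9:37401722-37402021, plus strand) holds 2.
Robo3: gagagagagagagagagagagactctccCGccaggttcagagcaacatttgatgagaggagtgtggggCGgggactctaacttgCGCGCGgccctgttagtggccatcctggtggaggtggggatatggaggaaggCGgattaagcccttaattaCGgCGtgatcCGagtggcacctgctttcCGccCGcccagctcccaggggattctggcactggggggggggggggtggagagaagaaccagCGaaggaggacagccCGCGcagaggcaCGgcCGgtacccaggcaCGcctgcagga
Robo4: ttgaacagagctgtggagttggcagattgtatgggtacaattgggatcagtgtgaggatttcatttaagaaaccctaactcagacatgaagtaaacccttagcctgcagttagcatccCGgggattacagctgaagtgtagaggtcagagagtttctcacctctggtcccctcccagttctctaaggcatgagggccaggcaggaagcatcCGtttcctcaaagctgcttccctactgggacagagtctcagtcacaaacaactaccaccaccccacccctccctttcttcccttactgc
CG reads the same on both strands. A promoter whose RefSeq start lay within 1000 bases of the annotated gene start was found for 55 of the 69 axon guidance genes and for 14446 protein-coding genes. Among the 55 the median was 23 CG, and 87.3% held at least 10, beside a median of 16 and 63.2% for all protein-coding genes. The 7 with fewer than 10 were Ntn5, Plxnb3, Robo4, Sema3d, Sema3g, Sema4a and Sema4f. Their median level was 1.70, against 5.19 for the 48 with at least 10, but Sema4a and Sema4f were at 9.68 and 9.74, and Epha1 and Efna4, which were nearly without counts, each had more than 10. These are descriptions of sequence, and methylation was not measured.

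Netrins, the laminin-related cues, had the second lowest sum of any family, 8.35 ± 1.44 for WT and 8.20 ± 0.68 for HAR123-KO (SD, n = 4). Ntn4 was at 2.64, Ntn3 at 2.19, Ntn1 at 1.74 and Ntn5 at 1.70, and these neighbours overlapped. Ntn5 shares 23.4% of its exon bases with Sec1. Their receptors summed to more, 49.4 ± 0.415 and 49.4 ± 0.755. Unc5a made up 48.1% ± 1.05 of the receptor sum for WT and 46.8% ± 1.02 for HAR123-KO, and Unc5d at 9.30, Dcc at 6.50, Unc5b at 5.25 and Unc5c at 4.91 followed.

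The 7 genes with an unadjusted p under 0.05 are given next by library, as normalized counts, with means ± SD (n = 4) and DESeq2 values. None of them passed after adjustment over all genes by this test.

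Robo3 had counts of 175, 165, 124 and 148 in WT and 111, 123, 117 and 127 in HAR123-KO. The third WT library lay inside the HAR123-KO range and the other 3 lay above it. The means were 153 ± 22.3 and 119 ± 6.95, a log2 fold change of −0.35 ± 0.12 (SE) with an interval of −0.58 to −0.12, an unadjusted p of 0.0031 and an adjusted p of 0.127. The adjusted p was 0.0477 by edgeR and 0.118 by limma-voom. Without the third WT library the log2 fold change was −0.44 and the DESeq2 adjusted p 0.0249, and when each of the 8 libraries was left out in turn the adjusted p ran from 0.0249 to 0.765. The Slits, its family's ligands, gave intervals of −0.32 to 0.03 for Slit1, −0.23 to 0.10 for Slit2 and −0.11 to 0.21 for Slit3 on the log2 scale.

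Sema7a and its receptor Plxnc1 both had values below those of WT without passing. Sema7a had 639, 619, 683 and 645 for WT and 619, 578, 589.9 and 587 for HAR123-KO, where the lowest WT library and the highest HAR123-KO library were both at 619. Its log2 fold change was −0.13 ± 0.05 with an interval of −0.23 to −0.02 and an adjusted p of 0.380. Plxnc1 had 213, 245, 222 and 224 for WT and 182, 205, 190.2 and 215 for HAR123-KO, with the highest HAR123-KO library above the lowest WT library. The Plxnc1 interval was −0.37 to −0.01 on the log2 scale, with an adjusted p of 0.492.

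Ephb1 and Efnb2, a receptor and a ligand of the B-type ephrin system, had values above those of WT without passing. Ephb1 had 214, 177, 192 and 183 for WT and 233, 223, 211 and 229 for HAR123-KO, where the first WT library lay above the third HAR123-KO library. Its log2 fold change was 0.23 ± 0.09 (interval 0.05 to 0.41, adjusted p = 0.318). Efnb2 had 221, 209, 199.96 and 206 for WT and 253, 243, 206 and 263 for HAR123-KO, and the third HAR123-KO library lay among the WT libraries. The Efnb2 log2 fold change was 0.20 ± 0.09 (interval 0.03 to 0.38, adjusted p = 0.416). The intervals of the other B-type receptors on the log2 scale were −0.07 to 0.15 for Ephb6, −0.47 to 0.04 for Ephb2 and −0.40 to 0.09 for Ephb3, with that of Ephb4 given above.

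Dcc had 259, 274, 247 and 229 for WT and 311, 277, 278 and 282 for HAR123-KO, so that every HAR123-KO library lay above every WT library, by a gap of 277 over 274. The log2 fold change was 0.19 ± 0.08 (interval 0.03 to 0.35, adjusted p = 0.403). Its cue Ntn1 gave an interval of −0.32 to 0.58 and its partner receptors Unc5a to Unc5d gave fold changes between −0.07 and 0.03 on the log2 scale. Epha3 had 48.4, 82.4, 55.9 and 63.1 for WT and 53.2, 42.8, 48.4 and 48.9 for HAR123-KO, and the first WT library lay inside the HAR123-KO range while the second stood far above the rest. The Epha3 log2 fold change was −0.37 ± 0.18 (interval −0.73 to −0.01, adjusted p = 0.533), and without the second WT library it was −0.21.

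**Figure D4:**
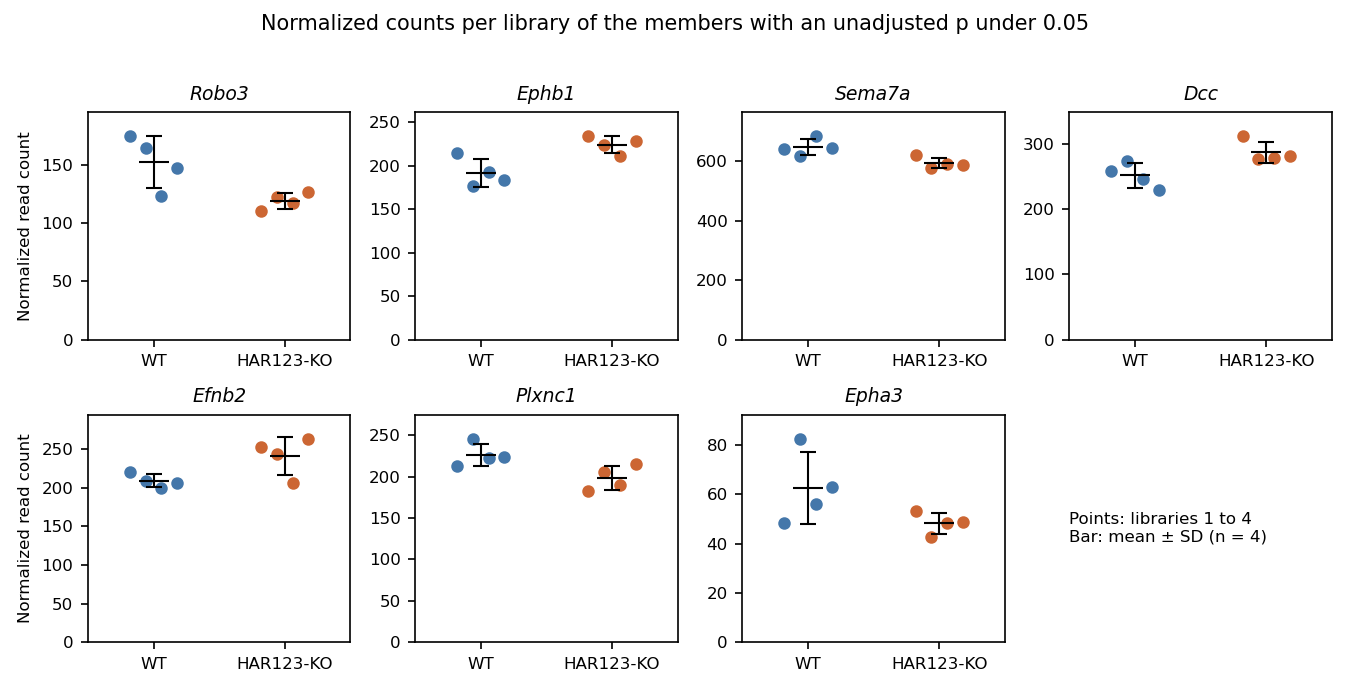
Normalized read counts (y axis, from 0) of the 7 axon guidance genes with an unadjusted p under 0.05, 1 point per library, with the mean and SD over 4 libraries in black. In 6 of the 7 the groups overlap, and in Dcc the lowest HAR123-KO library (277) lies just above the highest WT library (274).

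Among the 59 genes with at least 20 normalized counts 2 had groups that did not overlap, Dcc and Sema3e (3.39%), beside 7.78% of all genes of that abundance. Sema3e, named after its values were seen, had 158, 148, 145 and 145 in WT and 165, 163, 169 and 167 in HAR123-KO. The DESeq2 log2 fold change of Sema3e was 0.16 ± 0.10 with an adjusted p of 0.747. Sema3f, also named after its values were seen, had the fold change farthest above 0 (0.42 ± 0.23), with 30.4, 24.7, 47.4 and 21.4 for WT and 35.8, 42.8, 46.7 and 43.6 for HAR123-KO, so that the third WT library exceeded all HAR123-KO libraries. Without that library the Sema3f value was 0.73, and without WT replicate 4 it was 0.28.

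The replicate libraries of a group were close to each other for these genes. For the 43 axon guidance genes with at least 100 normalized counts, the variance between libraries divided by that of sampling noise had a median of 1.06 for WT and 0.801 for HAR123-KO, beside 1.004 and 0.981 over 6340 nuclear protein-coding genes of that abundance and 0.789 for sampling noise alone.

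The genes that work with these ligands and receptors were read in the same fit. A list of 68 holds co-receptors and other cues, such as Neo1, Rgma and the netrin-G genes, and the signalling proteins below the receptors, such as collapsin response mediators, Mical enzymes and actin regulators. Of its 65 tested genes 1 had an adjusted p under 0.05 by DESeq2, beside the 1.69% of all genes given above, and none was higher. That gene was Mical2, an enzyme of the Mical family that oxidises actin, with 1635 ± 78.6 normalized counts for WT and 1482 ± 22.6 for HAR123-KO (SD, n = 4), a log2 fold change of −0.14 ± 0.04 and an adjusted p of 0.0140. The Mical2 call was lost with library totals (adjusted p = 0.334) and without WT replicate 1 (0.170) or 4 (0.146) or HAR123-KO replicate 2 (0.148) or 3 (0.0644). Its log2 fold change was −0.10 with library totals and −0.13, −0.12, −0.13 and −0.15 in those 4 fits without a library. Limk1, a kinase that acts on cofilin, had an unadjusted p of 0.0081 and an adjusted p of 0.235, at 217 ± 10.8 and 183 ± 10.6. The median log2 fold change of the 67 genes of the list with at least 10 normalized counts was −0.014, with 39 below 0 and 28 above.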

How the data were processed

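Total RNA depleted of ribosomal RNA was sequenced. The authors aligned reads with STAR 2.5.2b to GRCm38 and deposited raw read counts per gene from featureCounts, with exon lengths (0 unused columns). Strand and multi-mapping settings are not given in the sources used here, so a gene that overlaps another can carry its counts. Symbols came from GENCODE M21, which matched all 55536 identifiers.

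The main test was the DESeq2 1.42.0 Wald test (R 4.3.3, genotype alone in the design, default median-of-ratios scaling, independent filter tuned to 0.1), fitted on the whole table, with Benjamini-Hochberg adjustment. Intervals are 95% Wald intervals. edgeR 4.0.16 quasi-likelihood and limma-voom 3.58.1 (TMM, filterByExpr), other scalings and filters, a replicate block and leaving out libraries were alternatives. Scripts were tested on simulated data. Floors of 3 counts and intervals on counts cover counting error, since PCR copies were not marked.

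Genes are named where their adjusted p was under 0.05, where the unadjusted p was under 0.05 with a mean of at least 20, as the highest of a family, or as Dcc, Robo4 and partners. Others are named for their level and were chosen after their values were seen. The members and lists were chosen with earlier results of these data known. No pair of libraries of a group agreed within sampling noise (chi-square per degree of freedom 1.38 to 3.83). By this index, which includes Gm42418, WT replicate 3 and HAR123-KO replicate 4 stood apart.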

Additional observations from a re-analysis of the deposited data

Results flagged for a closer look

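Among the 18 named axon guidance genes, 36 groups of 4 libraries were searched for a library far from the others by Dixon's criterion (0.829 for 4 values), of which chance would give about 1 in 20. It picked out 2. Dcc had 311 normalized counts in HAR123-KO replicate 1, where the other 3 libraries of the group had 277 to 282. Nrp1 had 123 in WT replicate 1, where the other 3 had 111 to 112.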

How the results depend on the processing

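The count of axon guidance genes with an adjusted p under 0.05 was 0 by DESeq2 and 1 (Robo3) by edgeR, and ran from 0 to 1 when each library was left out, with Robo3 the 1 gene without WT replicate 3. It was 0 with TMM factors, nuclear protein-coding size factors, library totals, limma-voom, no independent filter, at least 10 counts required in 4 libraries, and the replicate block. The count of pathway partners, 1 (Mical2), was 0 with library totals and the replicate block, and ran from 0 to 1 when each library was left out. The count past the fold change limit of 0.5 was 0 in every setting. With library totals the median log2 fold change was 0.013 over all members, −0.038 for semaphorins, 0.0013 for plexins and 0.025 for netrin receptors. Over the fits that left out a library the median ran from −0.088 to −0.041 for semaphorins, −0.032 to 0.078 for EphA receptors and −0.19 to 0.018 for EphB receptors. Small fold changes changed sign. With library totals Plxnd1 was at 0.0013, Efna3 at 0.017, Ntn4 at 0.025 and Unc5a at 0.00087, and with limma-voom Ntn4 was at 0.029. Over the fits that left out a library Nrp1 ran from −0.094 to 0.018, Efna3 from −0.051 to 0.018 and Ntn4 from −0.17 to 0.14. The causes of these shifts were not tested. Of 520 alternative values, 487 stayed on their side of the limit and within the spread. Libraries share replicate numbers across groups, and the deviations of same-numbered libraries correlated at −0.015 to 0.018 over 8793 genes. These values gave no sign of pairing. They cannot exclude it, because the spread between libraries was little above sampling noise (1.004 and 0.981 beside 0.789, as given above). With the replicate block 22 genes of the whole table had an adjusted p under 0.05 and the median over members was −0.030. Depth limits the genes with few counts, 7 of which averaged under 10.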
